A study of Arabidopsis thaliana with 24 samples.

Results

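The transcripts described here fell to 0.5 of their starting level or below within 1 h of 2,4-D treatment and were back near that level at 72 h, in both genotypes studied. They are 42 of the 22746 probe sets tested on the array. A probe set was included when its group mean on the log2 scale was lower at 1 h than at 0 h by at least 1 and differed between 72 h and 0 h by at most 0.5, in WT and in ACX alike. The members were thus selected on their 1 h and 72 h changes, which are given below as a description with no test. Platform annotation lists a single gene for 24 members, all protein-coding, and none for the other 18. The annotation used gives none of the 24 a symbol other than its locus code.

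The leaves came from Arabidopsis thaliana of 2 genotypes in the Col-0 background: the wild type (WT) and acx1-2 (here ACX), a line of the SALK insertion collection for ACX1, an acyl-CoA oxidase. Acyl-CoA oxidases carry out the first step of peroxisomal beta-oxidation and release hydrogen peroxide. For each genotype 3 arrays were taken 1 h and 3 arrays 72 h after a 23 mM 2,4-D spray, made up in DMSO and ethanol at 1% each, and 6 arrays are labelled 0 h. Control plants received the solvents alone and were also sampled at 1 h and 72 h, but the labels do not say whether the 0 h arrays are those controls, so effects of spraying, solvent, time of day and leaf age cannot be told apart from the herbicide. Each array holds RNA from a pool of leaves of at least 5 plants, all groups were grown in the same way, and the mutant is represented by 1 line.

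2,4-D is a synthetic auxin. Auxin binds a receptor of the TIR1/AFB family and drives the breakdown of Aux/IAA repressors, which releases the transcription of early response genes within minutes. 2,4-D is broken down more slowly than the natural hormone and is used as a herbicide against broad-leaved weeds. A transcript level drops within 1 h when an RNA is short-lived or actively degraded and its synthesis does not keep up. Because whole leaves were sampled, fewer cells of a type and less RNA per cell cannot be told apart.

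Median log2 values of the 24 arrays lay between 5.95 and 6.17 over all probe sets. They were highest on the 6 arrays at 72 h, at 6.13 to 6.17, against 5.95 to 6.07 at 0 h and 1 h. The leaf marker RCA (rubisco activase) read 14.14 to 14.39 in the 6 group means. Of the 2 measured root genes EXPA7, a root hair expansin, read 4.29 to 4.87 and PYK10, a beta-glucosidase, 5.76 to 7.53, highest in ACX at 0 h. The deposited medians of the WT 0 h arrays were 5.98 for replicates 1 to 3 and 6.03 to 6.05 for 4 to 6, and those of the ACX 0 h arrays showed no such split by number. Arrays did not vary equally within the 0 h groups. WT replicate 3 had the lowest mean correlation with the other arrays of its 0 h group (r = 0.978), and ACX replicates 3 and 6 had the lowest in theirs (0.981 and 0.982). The members read low on the same 3 arrays: 37 of 42 were under the group mean on WT replicate 3 (median deviation -0.30), 35 on ACX replicate 3 (-0.29) and 39 on ACX replicate 6 (-0.44), where the median deviation of all probe sets was 0.01, -0.02 and -0.02. The 217 probe sets lowered by at least 1 at both times in both genotypes deviated by -0.04, -0.28 and -0.36 on these arrays. What sets the 3 arrays apart was not tested.

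**Figure D1:**
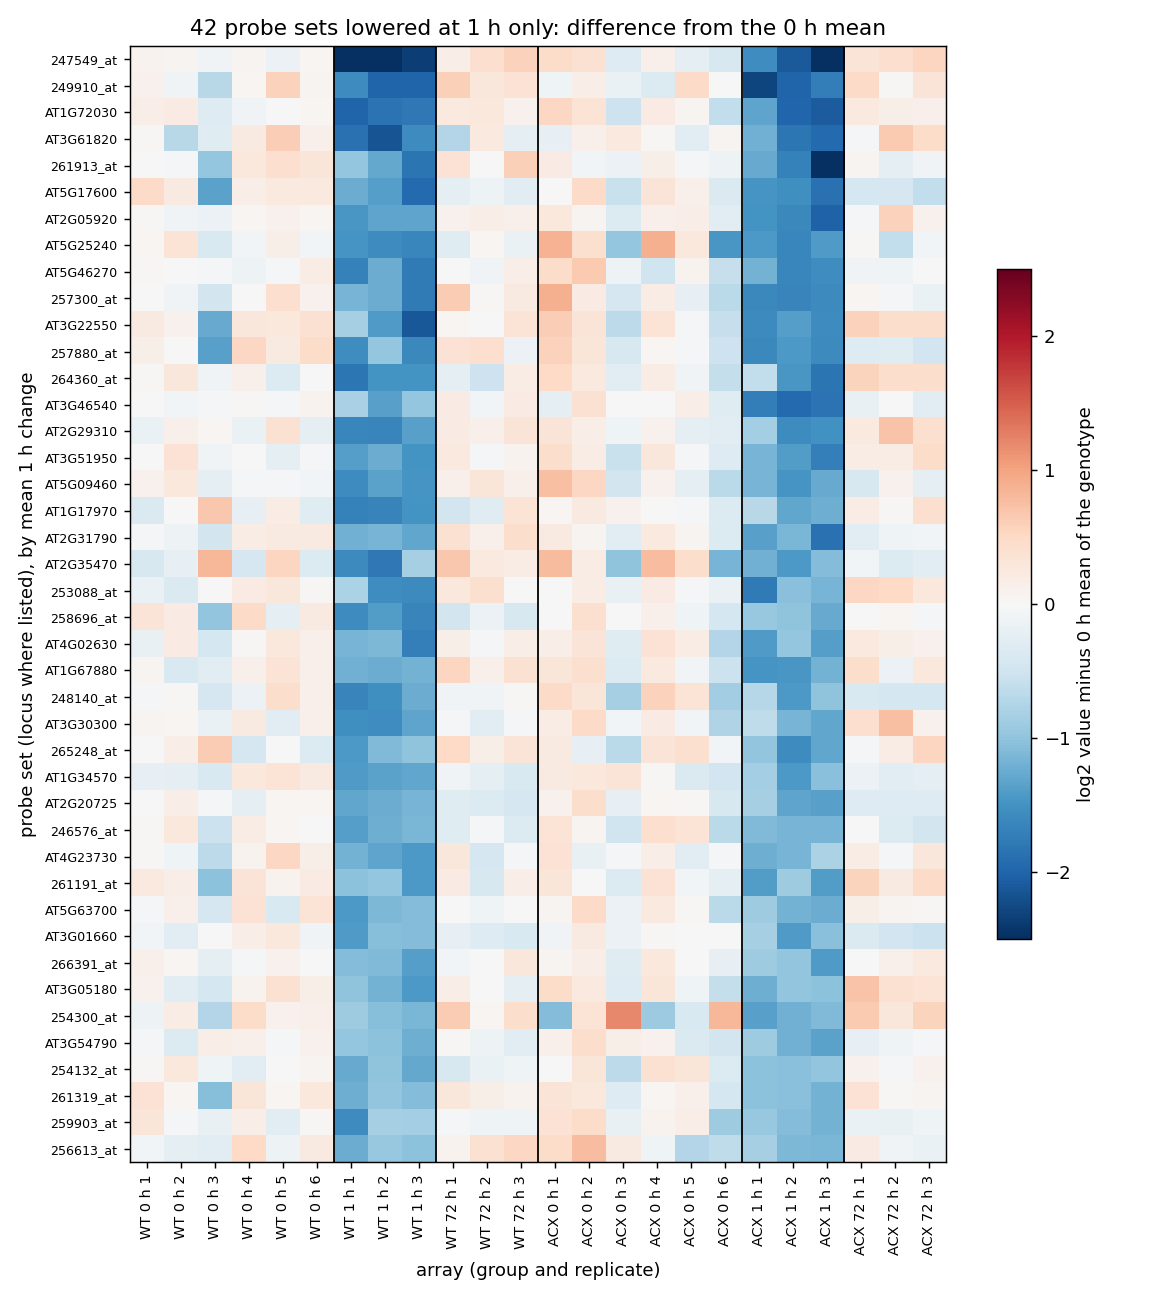
Log2 value of each of the 42 members (rows, by mean change at 1 h) minus the 0 h mean of the same genotype, in each of the 24 arrays (columns, by group and replicate). Blue is lower than 0 h and red higher; both blocks at 1 h are blue in all rows, the blocks at 72 h are pale, and 37, 35 and 39 of the 42 rows are blue in WT 0 h replicate 3 and ACX 0 h replicates 3 and 6.

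At 1 h the members had fallen by a median of 1.35 on the log2 scale in WT (2.55-fold) and 1.27 in ACX (2.41-fold), against a median change of all probe sets of -0.02 in each genotype. The range ran from -2.49 to -1.03 in WT and from -2.18 to -1.02 in ACX. Only 5 members lost at least 1.5 in both genotypes, 14 lost less than 1.3 in both, and the mean of both genotypes was a loss of at least 1.3 for 22 and of less for 20. At 72 h the median change from 0 h was 0.08 in WT, with a range of -0.35 to 0.41, and 0.10 in ACX, with a range of -0.49 to 0.50. Of the 42, 14 ended above 0 h in both genotypes, 10 below it in both and 18 on opposite sides. Between 1 h and 72 h the levels rose by a median of 1.42 in WT and 1.34 in ACX. With each array centred on its own median, the median changes at 72 h were -0.07 and -0.03, so their sign depends on the scaling. Membership depends on it too: 37 probe sets met the rule after centring, of which 32 were members. After quantile normalization 42 met it, of which 37 were members.

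Every array at 1 h lay below every 0 h array for 36 members in WT (15.1% of all probe sets did so) and for 38 in ACX (11.4%), and this held in both genotypes for 32. In WT the 6 members that overlapped were AT5G17600, AT3G22550, 261913_at, 257880_at, 261191_at and 261319_at, each of which read lowest at 0 h on replicate 3. The 4 that overlapped in ACX were AT5G25240, AT2G35470, AT3G30300 and 248140_at, each lowest at 0 h on replicate 6. Every 1 h array lay below every 72 h array for all 42 members in both genotypes, as it did for 30.0% of all probe sets in WT and 28.5% in ACX. The rule fixed these directions, and nothing is read from the counts.

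**Figure D2:**
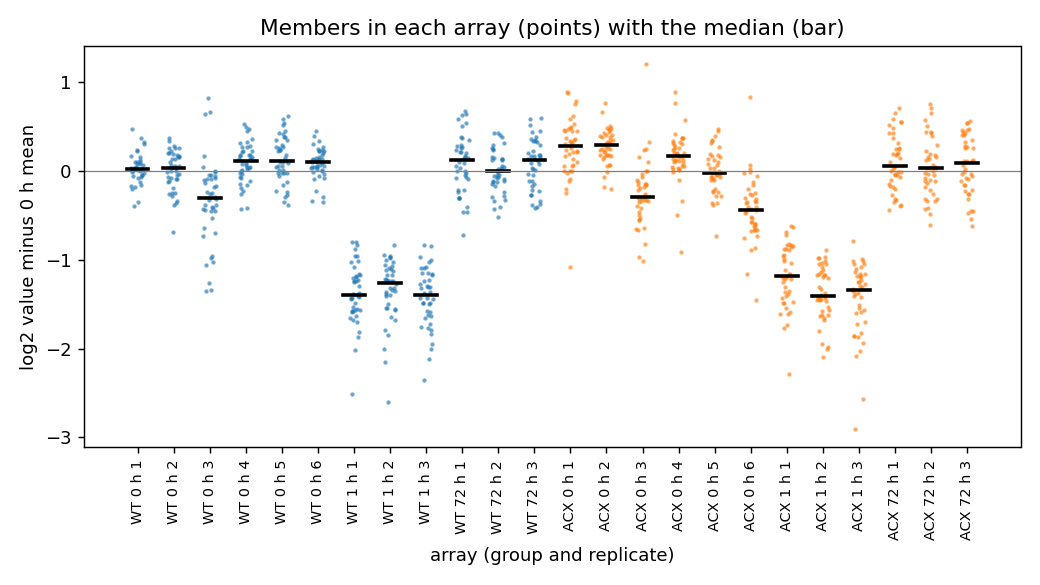
Difference of each member from the 0 h mean of its genotype (log2, vertical axis) in each array (horizontal axis), with blue points for WT, orange points for ACX and a black bar at the median of the 42 members. The medians lie between -1.40 and -1.26 on the WT arrays at 1 h, between -1.40 and -1.19 on the ACX arrays at 1 h, and between -0.005 and 0.124 on all 6 arrays at 72 h.

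At 0 h the members were expressed above the middle of the array: all 42 exceeded the median of all probe sets in both genotypes, with group means of 6.36 to 12.03 in WT and 6.14 to 11.67 in ACX. The rule favours such levels, because a probe set near the low end of the scale has little room to lose 1. Levels of the other probe sets lowered at 1 h were not compared. At 1 h 35 still exceeded that median in WT and 31 in ACX. No member's group mean fell under the lower quartile of all probe sets at 1 h (4.56 in both genotypes). The lowest was AT5G46270, at 4.79 in WT and 4.69 in ACX, which read 4.51 on ACX 1 h replicate 2, under that array's lower quartile of 4.58; whether the low end of the scale limits its fall was not tested. Members varied more between 0 h arrays than a typical probe set, with a median SD of 0.28 against 0.18 in WT (n = 6) and 0.39 against 0.18 in ACX (n = 6). At 1 h the median SDs were 0.16 against 0.12 in WT and 0.24 against 0.14 in ACX (n = 3 each). At 72 h they were 0.16 against 0.13 in WT and 0.14 against 0.12 in ACX (n = 3 each).

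The rule's thresholds pass through a continuous range. Just inside the 1 h limit, the weaker of the 2 falls was -1.02 for 254132_at and -1.03 for 256613_at, 254300_at and AT3G30300. Just outside it were AT1G64140 (-0.998), AT1G59620, AT1G21560 and 249920_at (-0.99 each). At the 72 h limit, 254300_at (0.50), AT5G17600 (0.49), AT3G22550 and AT3G05180 (0.48 each) were inside by the larger absolute change of the genotypes, and AT1G19715 (0.50), 266545_at and AT4G01330 (0.51 each) and AT1G52000 (0.53) were outside. Leaving out any 1 array kept between 31 and 42 of the 42 members and gave 36 to 58 probe sets meeting the rule. Without the 3 low 0 h arrays, an alternative chosen after seeing the data, 71 probe sets met it.

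Of the probe sets lowered at 1 h, more were also lower at 72 h than were back within 0.5 of 0 h. They numbered 487, each lowered by at least 1 at 1 h in both genotypes. The 42 members made up 8.62% of them, whereas 304 (62.4%) were also lower by at least 0.5 at 72 h in both. Another 44 (9.03%) were higher by at least 0.5 in both, and 97 showed other combinations. These shares use the same 0 h arrays at both times. By limma 27.0% of all probe sets were lower at 72 h in each genotype, and their share by the limits used here was not computed. No arrays were taken between 1 h and 72 h.

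The genotypes share no arrays, so a list chosen in one can be read in the other. In WT alone 197 probe sets met the rule, and in ACX alone 129, so the 42 are 21.3% of the first list and 32.6% of the second. Of the 197 chosen in WT, 161 (81.7%) fell in ACX at 1 h by limma at an adjusted p under 0.05, where 12.7% of all probe sets fell, and 0 rose. Their median change in ACX was -1.02, and 100 (50.8%) lost at least 1, against 3.71% of all probe sets. Of the 129 chosen in ACX, 106 (82.2%) fell in WT at 1 h, against 15.6% of all probe sets, with a median of -1.18, and 77 (59.7%) lost at least 1, against 3.56% of all. At 72 h 98 of the 197 (49.7%) were within 0.5 of 0 h in ACX, against 61.1% of all probe sets, and 67 of the 129 (51.9%) were in WT, against 60.8% of all. Of the 197, 43 ended higher than 0 h by over 0.5 in ACX and 56 lower, and of the 129, 38 ended higher in WT and 24 lower.

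**Figure D3:**
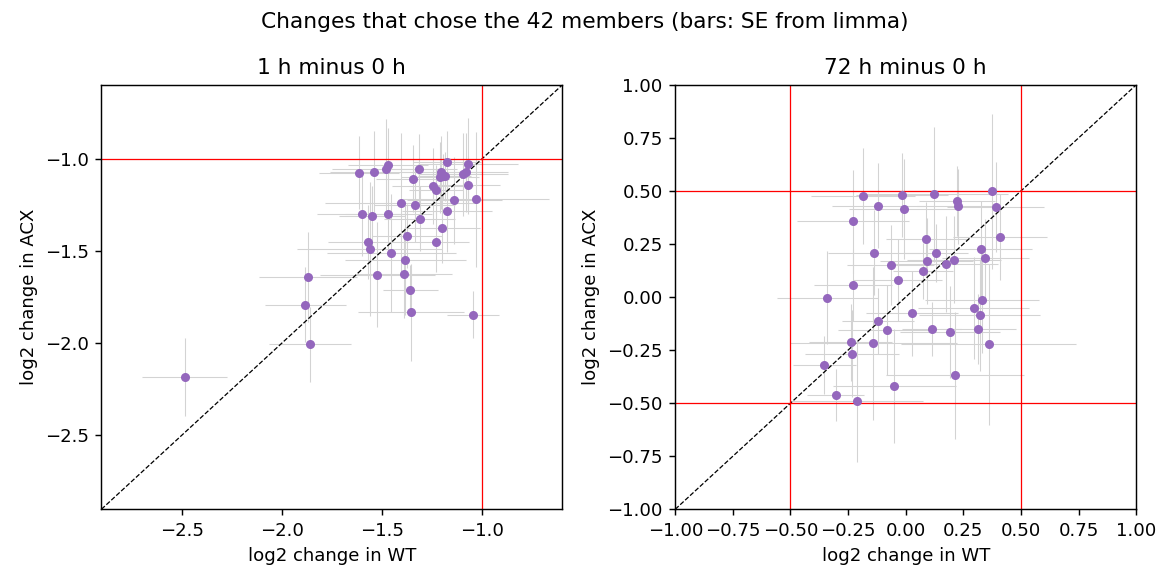
Log2 change of each member in WT (horizontal axis) and ACX (vertical axis) at 1 h (left) and at 72 h (right), both against 0 h, with bars for the standard error and red lines for the limits of the rule. Most points at 1 h sit within 0.3 of the dashed line of equal change (33 of 42), and the points at 72 h fill the permitted square, with 26 of 42 within 0.3 of that line.

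The members are a mixed group. Protein families named in the next paragraphs come from general knowledge of the loci and not from the annotation used, which gives locus codes alone, and 7 of the 24 loci are left without one.

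Averaged over the genotypes, the deepest fall among named genes was that of AT1G72030, whose product belongs to the acyl-CoA N-acyltransferases, enzymes that move an acyl group onto an amine. In WT it read 9.56 to 10.09 at 0 h (median 9.91, n = 6), 7.88, 8.04 and 8.10 at 1 h, and 10.10 ± 0.08 (SD, n = 3) at 72 h. In ACX it read 8.77 to 9.91 at 0 h (median 9.53), 8.08, 7.41 and 7.31 at 1 h, and 9.65, 9.54 and 9.52 at 72 h. The groups at 1 h and 0 h did not overlap in either genotype, and the changes were -1.88 in WT (3.69-fold down, SE 0.20) and -1.79 in ACX (3.46-fold down, SE 0.20). By the same average, 2 probe sets with no listed gene fell further. In 247549_at the level went from 8.77 ± 0.10 (SD, n = 6) to 6.29 ± 0.13 (n = 3) in WT, a 5.60-fold drop, and from 8.54 ± 0.37 to 6.35 ± 0.68 in ACX, where the 1 h arrays read 6.99, 6.44 and 5.63. The second, 249910_at, changed by -1.86 in WT and -2.01 in ACX.

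Protein breakdown was represented by 5 of the members given a family here. AT3G61820 encodes an aspartic protease. It read 7.47 to 8.78 at 0 h in WT (median 8.24), 6.29 ± 0.29 (SD, n = 3) at 1 h, and 7.44, 8.41 and 7.94 at 72 h. In ACX the 0 h arrays spanned 8.12 to 8.64 (median 8.45), those at 1 h read 7.20, 6.60 and 6.46, and those at 72 h 8.36, 9.05 and 8.85. All 1 h arrays were below all others of their genotype. AT2G05920 encodes a subtilase, a serine protease of the kind many plants secrete into the cell wall. Its arrays agreed closely in WT, with 10.31 ± 0.09 at 0 h (SD, n = 6), 8.95 ± 0.08 (n = 3) at 1 h, and 10.42, 10.47 and 10.45 at 72 h, a fall of 2.57-fold followed by a return to within 0.13 of the start. In ACX it went from 10.23 ± 0.24 to 8.74, 8.61 and 8.21, a fall of 3.27-fold, and then to 10.19, 10.80 and 10.34.

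The other 3 encode ubiquitin ligases, which mark proteins for the proteasome. The RING-H2 gene AT5G17600 changed by -1.52 in WT and -1.63 in ACX. Its WT arrays at 0 h lay between 7.80 and 8.11 apart from replicate 3, which read 6.30 and so within the 1 h arrays (6.40, 6.26 and 5.70). At 72 h it read 7.41, 7.52 and 7.37 in WT and 7.05, 7.06 and 6.86 in ACX, and the ACX mean stayed 0.49 under 0 h. The RING gene AT1G17970 changed by -1.62 in WT and -1.07 in ACX, and the U-box gene AT3G54790 by -1.07 and -1.14. The stress-induced PUB ligases are not members: PUB22 and PUB23 read 7.62 and 8.79 at 0 h in WT and 5.48 and 6.71 at 72 h. PUB24 read 7.20 at 0 h, 7.65 at 1 h and 7.26 at 72 h in WT. In ACX PUB22, PUB23 and PUB24 changed by -3.73, -3.54 and -1.57 at 72 h.

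Sugar transfer and sugar conversion were represented by 4 members. The UDP-glycosyltransferase gene AT2G31790 belongs to a family whose members attach glucose to hormones, xenobiotics and defence compounds. It read 9.18 to 9.87 at 0 h in WT (median 9.69), 8.42, 8.47 and 8.33 at 1 h, and 10.01, 9.75 and 10.08 at 72 h. In ACX it read 9.33 to 9.93 at 0 h (median 9.75), 8.32, 8.54 and 7.82 at 1 h, and 9.40, 9.57 and 9.60 at 72 h. The 1 h arrays were lowest in both genotypes, with changes of -1.23 and -1.45. AT1G67880, of an N-acetylglucosaminyltransferase family, was 2.30-fold lower at 1 h in WT and 2.60-fold lower in ACX. AT3G30300, of the O-fucosyltransferases, changed by -1.47 and -1.03 on the log2 scale, and AT4G23730, of the aldose epimerases, by -1.31 and -1.06.

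Among regulators, AT5G09460 encodes a basic helix-loop-helix protein. In WT it read 7.24 to 7.74 at 0 h (median 7.44), 5.90, 6.13 and 5.99 at 1 h, and 7.61, 7.78 and 7.61 at 72 h. In ACX the 0 h arrays were spread from 6.73 to 8.16 (median 7.34), those at 1 h read 6.24, 5.93 and 6.14, and those at 72 h 7.01, 7.52 and 7.19. The groups at 0 h and 1 h did not overlap, though ACX 0 h replicate 6 came within 0.5 of the highest 1 h array. AT5G46270, a TIR-NBS-LRR gene of the class that encodes intracellular immune receptors, was the lowest-expressed member at 0 h (6.36 in WT and 6.14 in ACX) and changed by -1.57 and -1.45. AT3G51950, with a CCCH zinc finger, changed by -1.38 and -1.42, and the protein kinase gene AT4G02630 by -1.34 and -1.25. All 4 regulators were within 0.28 of 0 h at 72 h in both genotypes.

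The remaining genes given a family here were AT2G29310, of the tropinone reductase-like dehydrogenases (-1.55 in WT and -1.31 in ACX), the GDSL esterase/lipase gene AT3G05180 (-1.21 and -1.07), and AT3G46540, whose ENTH/VHS domain is typical of proteins that assemble clathrin-coated vesicles (-1.05 and -1.84). AT3G46540 had the largest difference in the 1 h change toward a deeper fall in ACX (-0.80), and AT1G17970 the largest toward a deeper fall in WT (0.54). Across the 42 members 16 fell further in ACX and 26 in WT, with a median difference of 0.08. These differences are built from the changes that chose the members and were not tested.

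Members without a family given here included AT5G25240, which changed by -1.56 in WT and -1.49 in ACX. Its ACX 0 h arrays ran from 6.30 to 8.64 (SD 0.98, n = 6), with replicates 6 and 3 lowest at 6.30 and 6.79, against 6.33, 6.13 and 6.35 at 1 h. AT2G35470 showed the same pair of low arrays at 0 h in ACX (6.67 and 6.82), while in WT replicate 3 was its highest 0 h array (8.49). For 254300_at the same ACX arrays were the highest (8.49 and 8.13). AT3G22550 changed by -1.45 in WT and -1.51 in ACX, and the WT change was -1.12 without WT 1 h replicate 3 and -1.76 without WT 1 h replicate 1. The probe set for AT1G34570 is of the type shared by near-identical sequences, so its values (-1.35 and -1.11) may hold signal from more than 1 gene. The 1 h changes of AT2G20725 (-1.23 in WT and -1.17 in ACX) and AT5G63700 (-1.21 and -1.10) were close in the genotypes. They differed by 0.06 and 0.11, which was not tested.

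**Figure D4:**
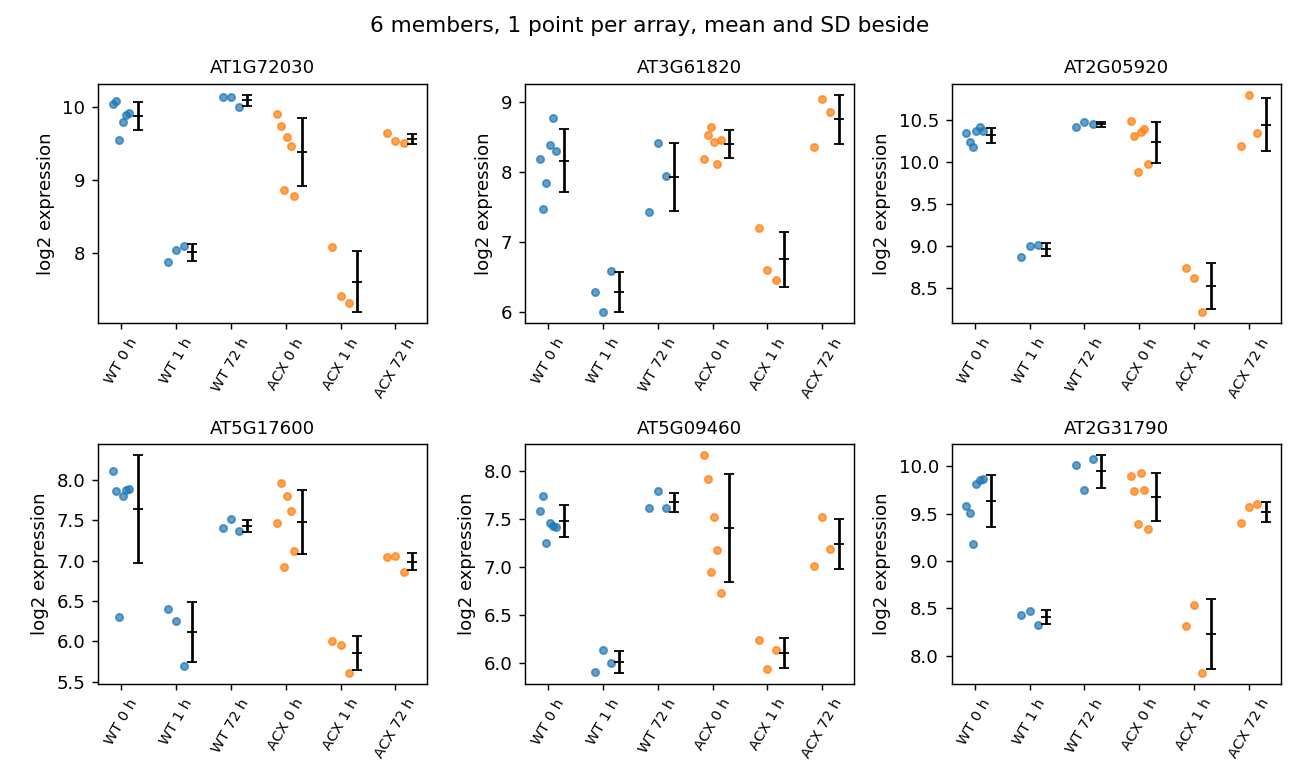
Log2 expression of 6 members in every array, 1 point per array (blue for WT, orange for ACX), with the group mean and SD beside the points; the vertical axes do not start at 0. In each of the 6 genes the 1 h arrays are the lowest group in both genotypes, and AT5G17600 shows the single WT 0 h array at 6.30 that overlaps the 1 h values.

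Comparing ACX with WT at each time asks whether the mutant holds these transcripts at another level, which the rule did not use, although the arrays are the same ones. At 0 h the transcripts AT3G05180, AT3G01660 and 258696_at were lower in ACX, and at 72 h AT3G01660 was. By limma with Benjamini-Hochberg adjustment over all probe sets, 3 of the 42 members differed at 0 h (7.14%, against 7.35% of all probe sets), each lower in ACX, as were 3.89% of all, 0 of 42 at 1 h (0.0352% of all) and 1 of 42 at 72 h (2.79% of all, 1.23% lower in ACX), so the members' share was near that of the whole array at 0 h and 72 h. At 1 h 3 members had an unadjusted p under 0.05, and the smallest adjusted p was 0.505. Standard errors of these differences had a median of 0.17 at 0 h and 0.24 at 1 h and 72 h.

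AT3G05180 read 7.86 to 8.68 in WT at 0 h (median 8.40, n = 6) and 7.02 to 8.09 in ACX (median 7.69), and the ranges overlapped. The difference was -0.68 (SE 0.16, adjusted p = 0.0125 by limma). Its 1 h arrays read 7.29, 7.13 and 6.87 in WT and 6.40, 6.63 and 6.60 in ACX, and those at 72 h 8.47, 8.31 and 8.07 in WT and 8.33, 8.01 and 7.96 in ACX. The ACX arrays were below all WT arrays at 1 h, and the groups overlapped at 72 h. The differences there did not pass the test (-0.55, adjusted p = 0.955 at 1 h; -0.18, adjusted p = 0.876 at 72 h, both by limma).

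258696_at read 7.16 to 8.62 in WT at 0 h (median 8.35) and 6.95 to 7.79 in ACX (median 7.39), a difference of -0.76 (SE 0.18, adjusted p = 0.0120 by limma). WT replicate 3 held the value 7.16, and without it the difference was -0.95.

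AT3G01660 read 7.82 to 8.35 in WT at 0 h (median 8.04) and 7.56 to 7.93 in ACX (median 7.71), a difference of -0.38 (SE 0.10, adjusted p = 0.0239 by limma). At 72 h it read 7.87, 7.75 and 7.71 in WT and 7.35, 7.22 and 7.16 in ACX, with no overlap and a difference of -0.53 (SE 0.14, adjusted p = 0.0456 by limma). The call at 72 h is at the edge of the threshold. Leaving out any 1 of the 6 arrays at 72 h ended it (adjusted p by limma up to 0.201, for WT replicate 1) and in 20 of 34 alternatives in all. The call at 0 h ended when replicate 4 (adjusted p by limma 0.0607) or 5 (0.0521) of WT or replicate 3 of ACX (0.0563) was left out, and when the 3 low arrays were left out together (0.0948).

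With 0 h replicates 1 to 3 only, all 3 calls at 0 h were lost (AT3G05180 -0.34, AT3G01660 -0.27 and 258696_at -0.47, adjusted p by limma from 0.216 to 0.252). In that setting 1 other member was called. With replicates 4 to 6 only, 12 members were called. When only the 0 h groups were fitted, AT3G05180 (adjusted p = 0.0558) and 258696_at (0.0662) lost their calls. The count of 3 rose to 10 without WT 0 h replicate 3, to 6 without ACX 0 h replicate 1 or ACX 1 h replicate 1 or 3, and to 5 without ACX 0 h replicate 2 or 4. It fell to 2 without WT 0 h replicate 4 or ACX 0 h replicate 3.

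Of the 42, 34 had a lower mean in ACX at 0 h, 32 at 1 h and 31 at 72 h, with median differences of -0.20, -0.19 and -0.20 where the median of all probe sets was -0.01, -0.01 and -0.003. Of all probe sets 52.6%, 52.5% and 50.9% were lower in ACX at these times. At 0 h the members read low on 2 of 6 ACX arrays and 1 of 6 WT arrays, as given above, and without those 3 arrays 27 of 42 were lower in ACX, with a median difference of -0.11. Members share arrays and are not replicates, and these counts have no test. AT3G61820 was the member with the largest difference the other way, at 0.82 at 72 h (SE 0.28, adjusted p = 0.138 by limma).

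**Figure D5:**
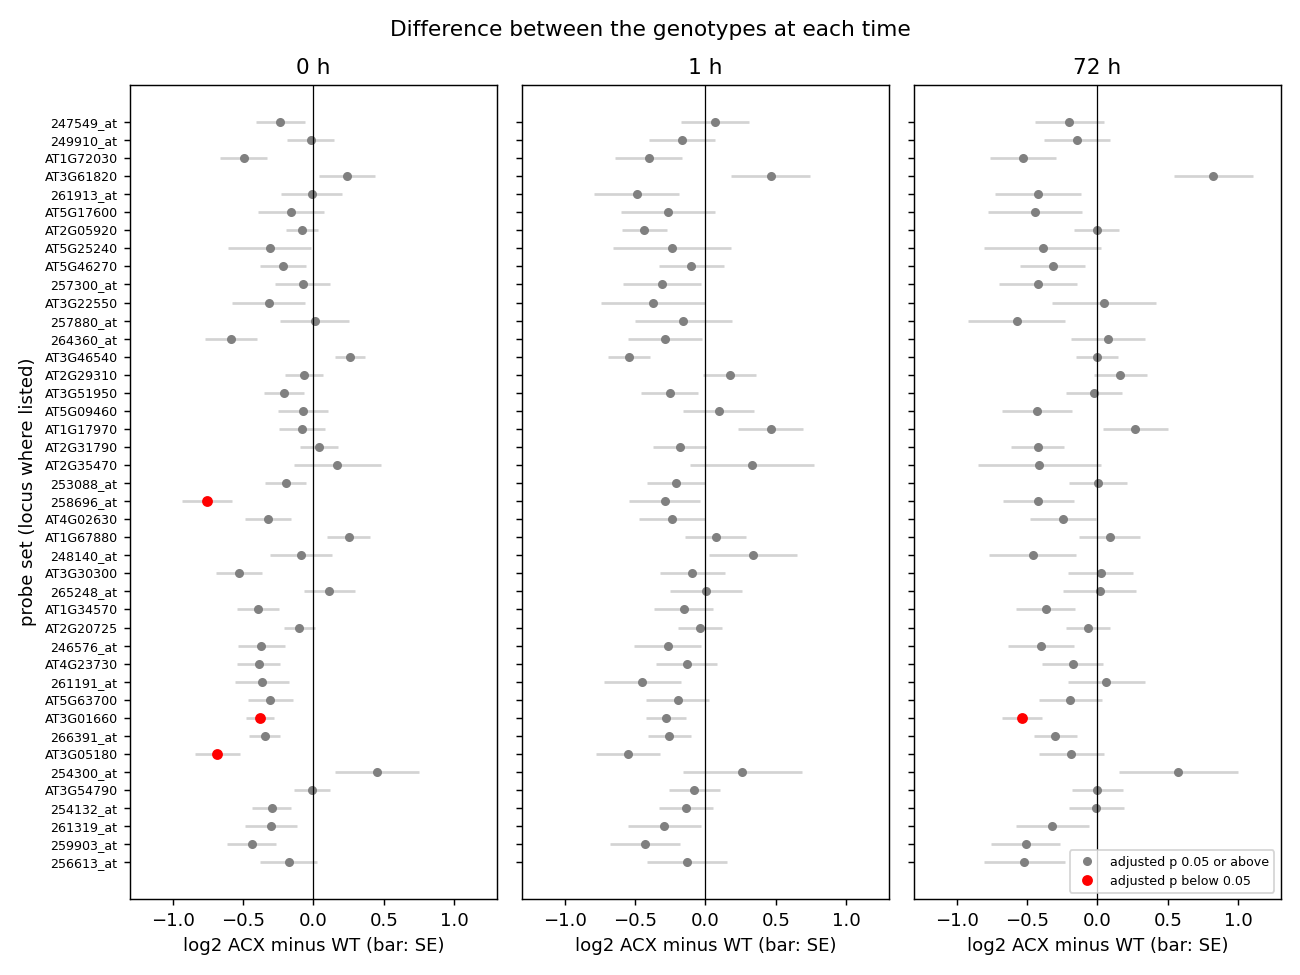
Log2 difference ACX minus WT (horizontal axis, bar for the SE) of each member (rows) at 0 h, 1 h and 72 h. Red points have a limma adjusted p below 0.05: AT3G05180, AT3G01660 and 258696_at at 0 h, none at 1 h and AT3G01660 at 72 h; most grey points lie left of 0.

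The annotation named 34 of 169 genes on the lists of hormone, stress, clock, wall and cell type genes. Of these 34, 0 are members, and of all 13513 probe sets with 1 listed gene 24 are, so nothing is read from the overlap. The 18 members with no listed gene cannot be compared with the lists. XTH19 met the rule in WT only (-2.06 at 1 h, 0.14 at 72 h; in ACX -0.71 at 1 h, adjusted p = 0.374 by limma). Comparisons at both times share the 0 h arrays, and the percentages of all probe sets were 11.0 higher and 15.6 lower in WT at 1 h, 10.9 and 12.7 in ACX at 1 h, 26.4 and 27.0 in WT at 72 h, and 26.3 and 27.0 in ACX at 72 h. At 0 h 10 of the 34 genes were higher in ACX than in WT and 2 lower by limma, against 3.46% and 3.89% of all probe sets. Changes from 0 h can thus start from unlike levels in the genotypes. All 4 early auxin genes (IAA29, GH3.1, GH3.3 and GH3.5) rose at both times in both genotypes. Of 4 touch and wound genes, 1 fell in WT and 4 in ACX at 1 h, and 3 and 4 fell at 72 h: the transcription factor gene ORA47 fell in both, with changes of -3.31 in WT and -3.14 in ACX at 1 h and of -3.69 and -5.02 at 72 h. Of 3 WRKY genes 2, WRKY22 and WRKY53, fell at 1 h and at 72 h in each genotype. WRKY6 rose in WT at both times (1.10 at 1 h). The touch and wound gene STZ and WRKY22 were already higher in ACX than in WT at 0 h (by 0.86 and 0.82, adjusted p 0.0092 and 0.0275 by limma).

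Of the 3 PUB ligases 1 fell in WT at 1 h (PUB23, -1.01) and 2 in ACX, and 2 and 3 fell at 72 h. PUB22 and PUB23 were already higher in ACX than in WT at 0 h (by 0.82 and 0.97, adjusted p 0.0212 and 0.0107 by limma). They did not differ between the genotypes at 1 h or 72 h by the test. The calcium-binding list held 6 genes, all calmodulin-like. In WT at 1 h 1 rose (CML42) and 0 fell, and in ACX 0 rose and 2 fell (CML41 and CML45). At 0 h CML42, CML41 and CML45 were already higher in ACX than in WT (by 1.38, 2.40 and 1.62, adjusted p 0.0466, 1.08e-04 and 0.0102 by limma). At 1 h these genes did not differ between the genotypes by the test. At 72 h 2 of the 6 rose and 1 fell in WT, and 1 and 1 in ACX. The calmodulin-like genes CML37 and CML38, counted with the touch and wound genes, fell in ACX at both times, and CML38 fell in WT at 72 h. Both immune receptor pathway genes, EFR and BIK1, rose in WT at 1 h, and EFR alone did in ACX. At 72 h 0 changed in WT and 2 fell in ACX. EFR was already higher in ACX than in WT at 0 h (by 0.55, adjusted p = 0.0298 by limma). Of 2 response regulators of cytokinin signalling, 2 fell at both times in WT and 1, ARR15, at both in ACX. The other, ARR16, already read lower at 0 h in ACX (4.90) than in WT (6.16), a difference of -1.27 (adjusted p = 0.00161 by limma). At 1 h ARR16 read 4.93 in WT and 4.94 in ACX. Of 5 wall growth genes 1 rose (EXPA4) and 1 fell in each genotype at 1 h, and 1 rose and 3 fell at 72 h. The gene that fell at 1 h was XTH19 in WT and XTH18 in ACX (-2.52, against 0.26 in WT). XTH18 was higher in ACX than in WT at 0 h (1.96, adjusted p = 5.73e-05 by limma).

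The clock gene GI fell in WT at 1 h (-1.52), and its other changes did not pass the test. At 0 h GI read 7.56 in WT and 6.10 in ACX, a difference of -1.46 (adjusted p = 0.00146 by limma). Of the cell type markers, the leaf marker RCA fell slightly in ACX at 1 h (-0.21, adjusted p = 0.0115 by limma). In ACX the root marker PYK10 fell at 1 h only (-1.77, adjusted p = 0.0344 by limma) and EXPA7 at 72 h only (-0.48, adjusted p = 0.00846 by limma). EXPA7 then read 4.29, under the lower quartile of all probe sets in that group (4.45). The guard cell gene FMA fell in WT at 72 h and in ACX at both times (-0.42 at 1 h). The part of these markers in the members' changes was not tested.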

How the data were processed

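Expression was measured on 24 Affymetrix ATH1 arrays. The deposited values are log2 expression per probe set, and the submitters' processing notes name RMA and limma without versions. RMA includes quantile normalization; no source says whether every array went through it in 1 run. Of 22810 probe sets, 64 controls were left out. The platform annotation listed 1 gene for 13513 probe sets, several for 503 and none for 8730. Locus codes follow RefSeq (TAIR10.1). Sequences were not used here.

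Values were taken as deposited, unfiltered. limma 3.58.1 (R 4.3.3) estimated a mean for each of 6 groups (18 residual and 3.23 prior degrees of freedom), two-sided, with Benjamini-Hochberg adjustment over 22746 probe sets in each of 7 comparisons and a threshold of 0.05. Each SE is limma's and each SD is over arrays of a group; the number of arrays limits the precision. The fit was tested on simulated data.

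Members and gene lists were chosen with earlier results of these data known, and protein families after values were seen. Genes named are those with the largest mean falls, those called between genotypes, those nearest each limit and those given a family here. For listed genes the brightest probe set was used. Lists with no gene named by the annotation (AP2/ERF, MYB, jasmonate, ethylene, brassinosteroid, light, auxin transport, starvation, vascular, flower and seed) gave no value. Alternatives varied the scaling, filter, prior, weights, limits, 0 h subsets, groups fitted and replicate block, or left out each array.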

Additional observations from a re-analysis of the deposited data

Results flagged for a closer look

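In 7 of 84 tests (42 members in each of the 0 h groups) 1 array stood apart from the other 5 by Dixon's criterion, which chance alone gives in about 1 of 20 groups, and members share arrays. All 7 were the low value of WT 0 h replicate 3. It read 6.30 for AT5G17600 (others 7.80 to 8.11), 7.03 for AT3G22550 (others 8.39 to 8.68), 7.58 for 261913_at (others 8.51 to 8.96), 8.08 for 257880_at (others 9.43 to 9.96), 7.47 for 246576_at (others 8.01 to 8.26), 11.01 for 261191_at (others 12.12 to 12.36) and 7.83 for 261319_at (others 8.95 to 9.26). No member was flagged in ACX, where 2 arrays, replicates 3 and 6, read low together.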

How the results depend on the processing

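The called genotype differences (AT3G05180, 258696_at and AT3G01660 at 0 h, AT3G01660 at 72 h) kept their direction under the alternatives run; the other members' differences were not followed. The count of members differing between genotypes at 0 h was 3; it was 6 without the lowest 25% of probe sets, 0 at a 2-fold minimum, 7 with array weights, 1 with only the groups compared, 1 with 0 h replicates 1 to 3 only, 12 with replicates 4 to 6 only, and 2 to 10 without 1 array. At 72 h the count was 1; it was 0 with array centring, the 2-fold minimum, the trended and robust prior, only the groups compared, the replicate block and 0 h replicates 1 to 3 only, and 0 to 1 without 1 array. At 1 h it was 0 throughout. With the replicate block the count at 0 h was 4; same-numbered arrays of the genotypes correlated at r = -0.51 to 0.22 in their deviations, so the numbers were not taken to pair samples. The number of probe sets meeting the rule was 24 with 1 probe set per named gene, 103 and 21 with 1 h limits of -0.8 and -1.2, 19 and 81 with 72 h limits of 0.3 and 0.7, and 71 without the 3 low 0 h arrays (chosen after seeing the data), of which 34 were members; it was 36 to 58 without 1 array. With 0 h replicates 1 to 3 only it was 53, of which 30 were members, and with 4 to 6 only 40, of which 24 were. The median 72 h change in ACX moved from 0.10 to -0.035 with centring and -0.11 without the 3 low arrays, and ran from 0.006 to 0.15 without 1 array; in WT it ran from -0.02 to 0.12. The median 1 h changes ran from -1.41 to -1.26 in WT and -1.36 to -1.21 in ACX without 1 array, from -1.46 (0 h replicates 4 to 6) to -1.205 (1 to 3) in WT over all alternatives, and from -1.47 (without the 3 low arrays) to -1.18 (replicates 4 to 6) in ACX. The cause of these shifts was not tested.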
